A study of Arabidopsis thaliana with 15 samples.

Results

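Expression of 9 nuclear genes for pentatricopeptide repeat (PPR) proteins was followed in 15 RNA-seq libraries of Arabidopsis rosettes. The genes were chosen by locus identifier, out of the 32733 genes that the count files list: PGN (AT1G56570), MEF37 (AT5G08305), AT3G50420, AT5G10690, OTP90 (AT1G25360), DYW2 (AT2G15690), NUWA (AT3G49240), MEF8 (AT2G25580) and MEF8S (AT4G32450). The first 4 of them each carry the T-DNA insertion of a mutant line, and the question was at what level the 9 genes are expressed and whether the others differ from Col-0 in these lines. There were 3 libraries each of wild type Col-0, pgn, mef37-1, a line labelled as a knock-out of AT3G50420 and a line labelled as a knock-out of AT5G10690, the last pair written here as at3g50420 and at5g10690. All lines grew untreated in a cycle of 16 h light and 8 h dark. The labels give 20 °C by day and 18 °C by night and an age of 25.5 days for the first 4 groups. For at5g10690 they give Boyes stage 1.14 in 2 libraries and only planting and harvest dates in the other. The paper states that homozygous plants of its insertion mutants were selected by PCR. Its text does not describe the at3g50420 and at5g10690 lines. Each mutated locus is represented by a single insertion allele. The 4 comparisons share the same Col-0 libraries.

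PPR proteins bind organelle RNA with a row of short repeats, and those of the PLS class direct C-to-U editing in mitochondria and plastids by selecting the base to be edited. Some carry a C-terminal DYW domain, named after its last residues aspartate, tyrosine and tryptophan, which holds the deaminase-like site. The E+ proteins stop short of it and rely on a separate short protein with a DYW domain. DYW2 is such a protein for E+ factors in both organelles, and NUWA, a PPR protein of the P class, is its partner.

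The ends of the coding sequences show this division and are given for the E+ proteins PGN and MEF37 and for 3 genes of short DYW proteins. Each is the last 30 bases up to and including the stop codon, read 5′ to 3′ on the coding strand of the RefSeq TAIR10.1 assembly, and the capitals mark the 3 codons before the stop.
PGN: ttagttaatgatcaagaaGTCGGAACTtga
MEF37: gatcaagacaatcattgtTTTTGTTCTtga
DYW2: ggtaaatgttcttgcgggGATTACTGGtag
MEF8: ggggcttgcacctgtaaaGATTATTGGtga
MEF8S: ggtgtttgctcctgtagaGAGTATTGGtaa
DYW2 and MEF8 end on codons for aspartate, tyrosine and tryptophan. MEF8S has glutamate in place of the aspartate. PGN ends on valine, glycine and threonine and MEF37 on phenylalanine, cysteine and serine, so neither holds the triplet. The same codons read proline, serine and cysteine in NUWA, lysine, leucine and leucine in AT5G10690, and cysteine, serine and asparagine in AT3G50420.

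The coding sequences run from 534 codons in MEF37 and 537 in MEF8S to 790 in OTP90 and 794 in AT3G50420. The 5 genes with 1 exon are MEF37, OTP90, DYW2, NUWA and MEF8S. PGN has 2 exons, MEF8 has 3, AT3G50420 has 4 and AT5G10690 has 13. The start, end and strand of all 9 genes in the count files were those of TAIR10.1, where PGN lies on chromosome 1 from 21195644 to 21199130, OTP90 on chromosome 1 from 8894380 to 8897124, DYW2 on chromosome 2 from 6830995 to 6833777 and MEF8 on chromosome 2 from 10888009 to 10890671. AT3G50420 lies on chromosome 3 from 18710871 to 18713649, NUWA on chromosome 3 from 18255961 to 18258203, MEF8S on chromosome 4 from 15660927 to 15662879, MEF37 on chromosome 5 from 2669944 to 2671782 and AT5G10690 on chromosome 5 from 3373640 to 3377579. None of them overlapped another gene on the same strand, and 0 of their 75-base stretches occurred a second time in the genome, so their reads were not shared with a copy. Genes on the opposite strand overlapped PGN, AT5G10690, DYW2, NUWA and MEF8S, and reads were counted by strand.

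The genotyping primers show which part of a gene an insertion divides. For pgn and mef37-1 they matched the genome at 1 place each, and are printed here because the counts cover both sides of the insertion.
pgn forward primer: tgtacaagcaaatgttgctgg
pgn reverse primer: catcatcttcctcactctcgc
mef37-1 forward primer: agtctttcctcgatttagcgc
mef37-1 reverse primer: cttggaatccaccattcagtg
Counted along the genome from the first coding base, the pgn pair lies at 598 (chr1:21196402-21196422, plus strand) and 1693 (chr1:21197497-21197517, minus strand), within the coding region of PGN. The mef37-1 pair lies at -364 (chr5:2672082-2672102, minus strand) and 765 (chr5:2670953-2670973, plus strand), across the start of MEF37. A read that maps before or after the insertion counts for the gene in either line.

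The libraries held 19555274 to 30901304 counted reads, with a median of 26101740. Plastid genes took 59.1% to 65.0% of them. Markers of rosette leaves were high in every library, with 33768 to 162955 reads on RBCS1A, while the 3 flower markers summed to at most 5 reads and the 3 seed markers to at most 2. Of the 3 root markers, EXPA7 was at 0 in all 15 libraries and COBL9 at 1 at most, and PYK10 ranged from 0 to 1796. RNA from fewer cells and less RNA per cell cannot be told apart in such samples.

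All 9 genes were expressed in Col-0 rosettes, at levels that fell into an upper group of 5 and a lower group of 4. Levels are compared between genes as normalised CPM, the counts scaled to a common library size, per kb of exon. AT5G10690, a PPR protein with a CBS domain, stood first at 3.90 ± 1.46 CPM per kb (SD, n = 3), and DYW2 was next at 2.38 ± 0.188. MEF8 followed with 1.33 ± 0.316, NUWA with 1.07 ± 0.0833 and MEF8S with 0.867 ± 0.248 CPM per kb. The lowest were specificity factors and AT3G50420: PGN had 0.298 ± 0.153, MEF37 0.236 ± 0.130, AT3G50420 0.212 ± 0.0820 and OTP90 0.201 ± 0.0715 CPM per kb. Within the lower group, and between MEF8, NUWA and MEF8S, neighbours in this order differed by less than their spread. Each AT5G10690 value lay above each DYW2 value, at the nearest by 2.57 against 2.51 CPM per kb, each DYW2 value above each MEF8 value and each MEF8S value above each PGN value.

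**Figure D1:**
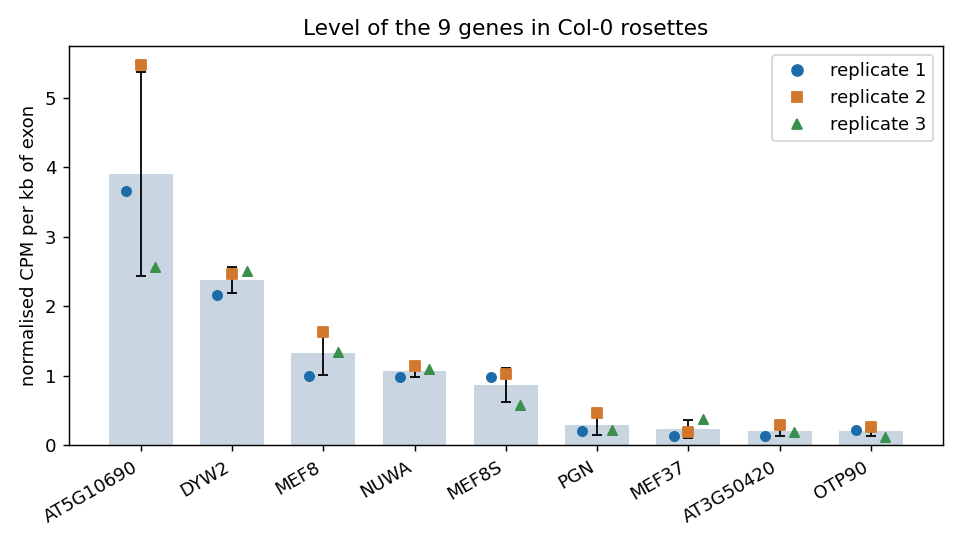
Level of the 9 genes in Col-0 rosettes, in normalised CPM per kb of exon (vertical axis). Bars give the mean of 3 libraries, error bars the SD, and symbols the libraries. AT5G10690 and DYW2 stand at 3.90 and 2.38, and PGN, MEF37, AT3G50420 and OTP90 between 0.201 and 0.298.

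With the coding length in place of the exon length, AT3G50420, whose gene model has no untranslated region, and OTP90 changed places and the other 7 kept theirs. With the number of positions at which an unspliced 75-nt read fits, a measure added after the data were seen, all 9 kept their places. It matters most for AT5G10690, where 1673 of 2611 exon positions remain, because the reads were aligned without splicing. On that measure its level was 6.09 CPM per kb. Over the libraries of lines without an insertion in the gene, 42.9% (OTP90) to 76.4% (AT5G10690) of the 32548 nuclear genes had a lower level per kb.

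The position of the 9 genes among other editing factors was read from 3 lists of PPR genes, 45 in all, that are not among the 9. The list of 16 other E+ factors differs from the characterised E+ proteins that the paper names. It holds CWM2, which the paper does not name among them, and lacks OTP72. Levels of these 16 in Col-0 ran from 0.0673 CPM per kb for MEF25 to 3.51 for AEF1, with a median of 0.283. PGN was exceeded by 8 of these 16 and MEF37 by 10. Against 26 other E and DYW factors, with a median of 0.736 CPM per kb, the lower group stood low: PGN was exceeded by 21 of them and MEF37, AT3G50420 and OTP90 by 24 each. Of the upper group, AT5G10690 was exceeded by 1 of the 26, DYW2 by 2, MEF8 by 5, NUWA by 8 and MEF8S by 12. Among the E+ factors, DYW2 was exceeded by 1 of the 16, AEF1, and NUWA, MEF8 and MEF8S by 2. Among the other small DYW proteins, DYW1, which serves the plastid editing factor CRR4, was higher than DYW2 at 4.57 CPM per kb, DYW4 stood at 1.39, and DYW3 had at most 1 read in any library.

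The reads set how closely each gene could be followed. Over all libraries whose line has no insertion in the gene, OTP90 had 6 to 21 reads (median 11), MEF37 8 to 31 (median 11), AT3G50420 3 to 29 (median 11) and PGN 19 to 57 (median 28.5). MEF8S had 27 to 81 reads (median 45), NUWA 28 to 104 (median 50), MEF8 48 to 149 (median 74), DYW2 98 to 209 (median 135) and AT5G10690 201 to 319 (median 263.5). For OTP90 the coefficient of variation of the normalised level, 29.8%, was close to the 28.9% that counting alone gives at this depth. DYW2 varied least, by 14.5% against 8.30% from counting, and AT5G10690 by 23.2% against 6.14%. The highest level was 1.51 times the lowest for DYW2 and 5.96 times for AT3G50420.

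The 4 genes with insertions come first, since they check the labels. AT5G10690 was almost absent from its own line. It had 318, 319 and 201 reads in Col-0 replicates 1 to 3 and 1, 3 and 4 in at5g10690. It had 205, 255 and 256 reads in pgn, 237, 263 and 266 in mef37-1, and 288, 314 and 264 in at3g50420. The 12 libraries of the other lines therefore all lay far above the 3 of at5g10690. Its mean level was 10.2 ± 3.82 CPM in Col-0 and 0.105 ± 0.0461 CPM in at5g10690 (SD, n = 3), and the summed reads, scaled for depth, were 1.11% of those of Col-0, with an exact 95% interval from 0.478% to 2.20% that covers counting error only. The log2 fold change was -6.47 (standard error 0.439, adjusted p = 0.0126, edgeR's quasi-likelihood test). The call was lost when Col-0 replicate 1 (adjusted p = 0.0672), at5g10690 replicate 1 (0.182), replicate 2 (0.180) or replicate 3 (0.251) was left out of the edgeR fit, at log2 fold changes between -6.71 and -6.17 over all 6 omissions, and adding the replicate number as a block gave an adjusted p of 0.000908.

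PGN, an E+ factor of mitochondria, had 9, 6 and 16 reads in pgn and 23, 36 and 22 in Col-0. The other 3 lines had 32, 19 and 24 (mef37-1), 33, 29 and 54 (at3g50420) and 28, 27 and 57 (at5g10690). All 3 pgn libraries lay below all 12 others. The mean level in pgn was 0.388 ± 0.109 CPM against 1.01 ± 0.519 CPM in Col-0 (SD, n = 3). The summed reads were 42.5% of those of Col-0, with an exact 95% counting interval of 27.1% to 65.0%. Reads on both sides of the insertion count here, and the paper reports no PGN transcript of full length in pgn. In contrast to AT5G10690 in its line, PGN kept a sizeable part of its reads. In the comparison with Col-0 its log2 fold change was -1.34 (standard error 0.453, unadjusted p = 0.0218, adjusted p = 1, edgeR's quasi-likelihood test), so PGN was not called. At an unadjusted p under 0.05 stood 0.873% of all genes tested there.

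MEF37, the E+ factor disrupted in mef37-1, was not lower in the libraries of that label. It had 17, 20 and 12 reads there and 8, 8 and 21 in Col-0, and the ranges overlap. In the other lines it had 10, 9 and 31 (pgn), 12, 12 and 19 (at3g50420) and 8, 9 and 27 (at5g10690). The libraries labelled mef37-1 had the highest mean of the 5 lines, 0.651 ± 0.114 CPM, against 0.434 ± 0.240 CPM in Col-0 (SD, n = 3). The log2 fold change was 0.58, with a 95% interval from -0.50 to 1.66 (adjusted p = 1, edgeR's quasi-likelihood test), an interval that leaves out a loss of the size seen for AT5G10690. MEF37 has a single exon. The genotyping primers bracket the insertion between -364 and 765 from the first coding base, and the paper places it away from the initiation codon. The counts do not say on which side of the insertion the reads fall. The paper reports no MEF37 transcript of full length in leaves of this mutant. It also reports that editing was reduced there at several mitochondrial sites.

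AT3G50420, a PPR gene without a name in the annotation used, gave a like picture. It had 10, 11 and 13 reads in the libraries labelled at3g50420 and 11, 16 and 14 in Col-0. It had 11, 10 and 10 reads in mef37-1, 4, 14 and 14 in pgn, and 9, 3 and 29 in at5g10690. The 3 values of the labelled line were within the range of the rest. The log2 fold change was -0.18, with a 95% interval from -1.10 to 0.75 (adjusted p = 0.989, edgeR's quasi-likelihood test), and without Col-0 replicate 2 it turned to 0.14. Where the insertion lies in this gene or in AT5G10690 is not given in the sources used here.

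**Figure D2:**
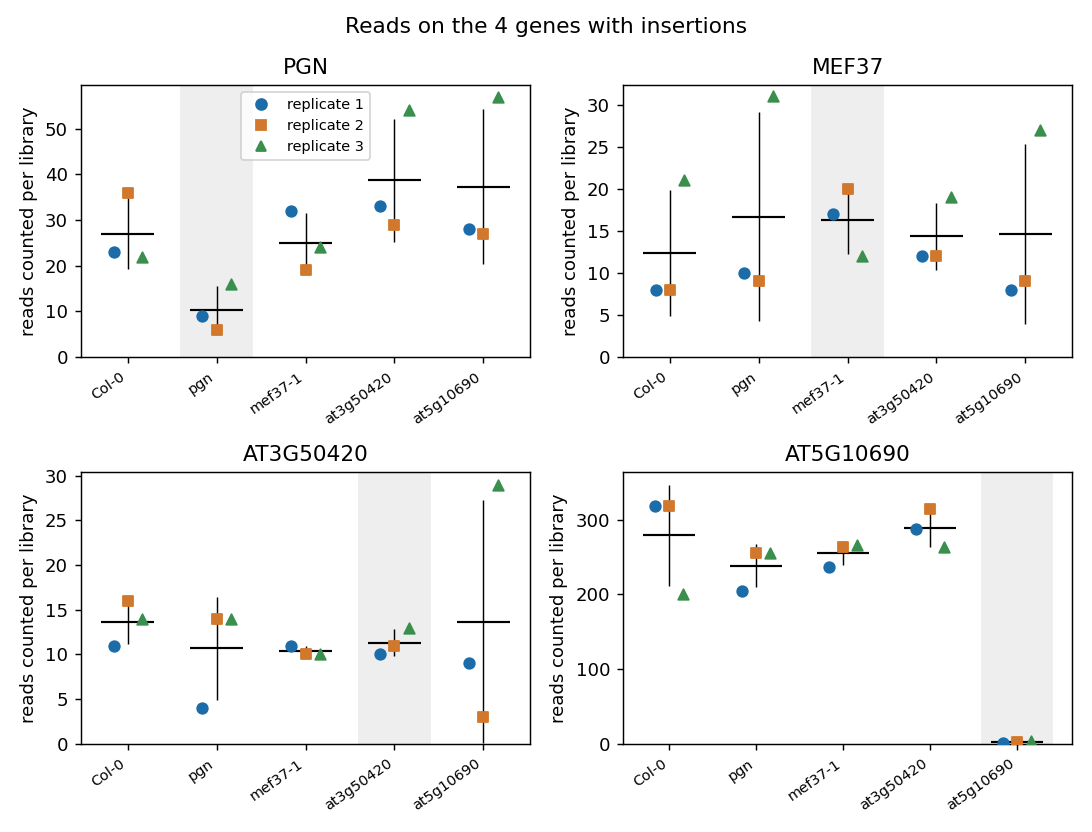
Reads per library (vertical axes) on the 4 genes with insertions, by line (horizontal axes). Symbols are the 3 libraries, horizontal bars the mean, vertical bars the SD (ended at 0), and the grey band marks the line labelled with an insertion in that gene. AT5G10690 falls to 1 to 4 reads and PGN to 6 to 16 in the marked line, and MEF37 and AT3G50420 stay at 12 to 20 and 10 to 13.

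Of the genes without an insertion, DYW2, the DYW partner of E+ factors, was measured most closely. Its level in Col-0 was 6.02, 6.85 and 6.98 CPM (200, 153 and 209 reads). It was 4.94, 4.61 and 6.06 CPM in pgn (111, 101 and 198 reads) and 4.89, 4.86 and 4.98 CPM in mef37-1 (124, 129 and 113 reads). In at3g50420 it was 6.88, 5.24 and 5.15 CPM (140, 135 and 165 reads), and in at5g10690 5.29, 5.02 and 5.86 CPM (98, 105 and 199 reads). Of the 12 insertion-line libraries 10 were below every Col-0 library and 0 were above, and the exceptions were pgn replicate 3 and at3g50420 replicate 1. At least 10 of 12 were below every Col-0 library for 1.32% of the 18358 genes tested. The log2 fold changes against Col-0 were -0.35 (standard error 0.161) in pgn, -0.43 (0.137) in mef37-1, -0.20 (0.181) in at3g50420 and -0.28 (0.165) in at5g10690. They rest on the same 3 Col-0 libraries. None was called: the unadjusted p was 0.0162 in mef37-1 and 0.0656, 0.297 and 0.136 in pgn, at3g50420 and at5g10690, and the adjusted p was between 0.987 and 1 (edgeR's quasi-likelihood test). When edgeR's test was blocked on replicate number, the unadjusted p in pgn was 0.0334 and the adjusted p 0.703. Set against the Col-0 library of the same number, DYW2 was lower in 3 of 3 pairs in pgn, mef37-1 and at5g10690 and in 2 of 3 in at3g50420. With the 9 libraries of the other insertion lines as control, the log2 fold change of DYW2 was -0.05 in pgn and -0.15 in mef37-1 and turned to 0.15 in at3g50420 and 0.04 in at5g10690.

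NUWA, the partner of DYW2, also had its highest mean in Col-0, at 2.20, 2.55 and 2.47 CPM (73, 57 and 74 reads). It was 1.91, 1.51 and 2.05 CPM in pgn, all below Col-0. In mef37-1 it was 2.60, 1.58 and 2.07 CPM, in at3g50420 2.46, 1.47 and 1.56 CPM, and in at5g10690 1.51, 2.15 and 3.06 CPM. Of the 12 insertion-line libraries 9 were below every Col-0 library and 2 above. At least 9 of 12 were below for 2.97% of the 18358 genes tested. The log2 fold changes were -0.40 (standard error 0.201) in pgn, -0.21 (0.230) in mef37-1, -0.40 (0.262) in at3g50420 and -0.07 (0.294) in at5g10690. The smallest unadjusted p of the 4 was 0.0872, in pgn, and the adjusted p was at least 0.987 in each (edgeR's quasi-likelihood test).

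MEF8 and MEF8S, short DYW proteins of mitochondria that resemble each other, did not pass the test in any line. MEF8 had a mean of 3.39 ± 0.805 CPM in Col-0, 2.97 ± 0.421 in pgn, 2.79 ± 0.266 in mef37-1, 3.12 ± 0.657 in at3g50420 and 3.37 ± 0.901 in at5g10690 (SD, n = 3). Its log2 fold changes against Col-0 lay between -0.28 and 0.02. MEF8S had 1.69 ± 0.484 CPM in Col-0, 1.55 ± 0.0931 in pgn, 1.85 ± 0.214 in mef37-1, 1.97 ± 0.316 in at3g50420 and 1.95 ± 0.468 in at5g10690 (SD, n = 3), with log2 fold changes between -0.14 and 0.23. The ranges of both genes overlapped those of Col-0 in all 4 lines. The coding sequences of the 2 genes share no stretch of 25 bases, and 0 of the 75-base stretches of their exons occurred elsewhere in the genome. A read of 75 bases that matches an exon exactly thus fits only 1 of them.

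OTP90, a specificity factor with its own DYW domain whose protein is targeted to both organelles, was the least abundant of the 9 per kb. It had 20, 16 and 10 reads in Col-0, 14, 8 and 12 in pgn, 8, 13 and 6 in mef37-1, 11, 8 and 16 in at3g50420 and 8, 9 and 21 in at5g10690. Its mean was highest in Col-0 (0.551 ± 0.196 CPM) and lowest in mef37-1 (0.356 ± 0.118 CPM; SD, n = 3), and the ranges overlapped. The log2 fold change in mef37-1 was -0.60, with a 95% interval from -1.64 to 0.43 (adjusted p = 1, edgeR's quasi-likelihood test), the farthest reach below 0 among genes without an insertion in the line compared.

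**Figure D3:**
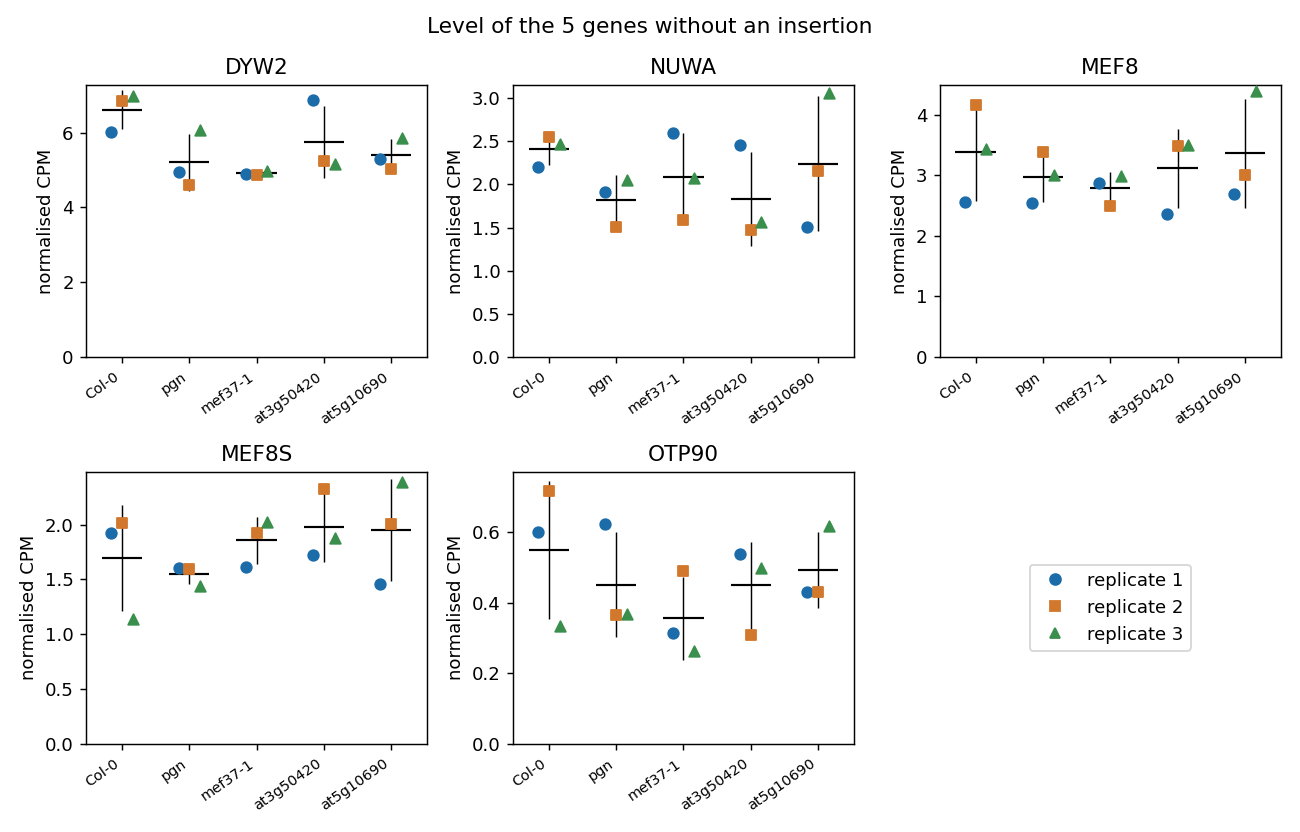
Normalised CPM (vertical axes) of DYW2, NUWA, MEF8, MEF8S and OTP90 in each line (horizontal axes). Symbols are the 3 libraries, horizontal bars the mean and vertical bars the SD. DYW2 lies between 6.02 and 6.98 in Col-0 and between 4.86 and 4.98 in mef37-1, and the groups of MEF8, MEF8S and OTP90 overlap in every line.

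Whether the other 8 differed from Col-0 was read from each comparison. For mef37-1 and at3g50420 these are comparisons of the labelled lines and not of a loss seen in the gene counts. The summed reads of the targeted gene, scaled for library size, were 152% and 90.7% of those in Col-0. Such counts do not tell whether a full-length transcript remains. For MEF37 the paper reports that none was left in leaves of its mutant. All 9 genes passed edgeR's filter on low counts in all 4. In pgn 0 of the other 8 were called, against 0% of the 17521 genes tested, with 153 genes and 0 of the 8 at an unadjusted p under 0.05. In mef37-1 0 were called (background 0.00569%) and 1 of the 8, DYW2, had an unadjusted p under 0.05 (background 1.41%). In at3g50420 0 were called (background 0%), and 0 fell under an unadjusted p of 0.05 (background 2.91%). In at5g10690 0 of the other 8 were called and AT5G10690 itself was (background 0.0114%), and 0 of the 8 had an unadjusted p under 0.05 (background 0.312%). With the replicate number as a block, edgeR's quasi-likelihood test again called 0 of the other 8 in each line, and 1 of the 8, DYW2, had an unadjusted p under 0.05 in pgn (background 7.07%) and in mef37-1 (3.63%), against 0 in at3g50420 (7.19%) and in at5g10690 (1.84%). DESeq2 and edgeR's likelihood ratio test likewise called 0 of the other 8 in each line.

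The fold changes of the other 8 were imprecise estimates for the genes with few reads. They lay between -0.40 and 0.49 on the log2 scale in pgn (7 below 0, median -0.23), between -0.60 and 0.13 in mef37-1 (5 below 0, median -0.23), between -0.40 and 0.56 in at3g50420 (4 below 0, median 0.03) and between -0.28 and 0.60 in at5g10690 (3 below 0, median 0.04). The medians of all genes tested were -0.01, -0.02, -0.01 and 0.00. The ranges of a line and Col-0 did not overlap for 1 of the 8 in pgn (NUWA), mef37-1 (DYW2) and at5g10690 (DYW2) and for 0 in at3g50420. Over all genes tested the shares without overlap were 4.62%, 5.77%, 3.37% and 7.98% in the same order. Standard errors of the 8 ran from 0.137 for DYW2 in mef37-1 to 0.625 for AT3G50420 in at5g10690.

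The largest positive fold changes among the other 8 were those of PGN in at3g50420 and at5g10690. It had a mean of 1.48 ± 0.307 CPM in at3g50420 and 1.49 ± 0.195 CPM in at5g10690, against 1.01 ± 0.519 in Col-0 and 1.01 ± 0.275 in mef37-1 (SD, n = 3). The log2 fold changes of 0.56 and 0.60 had 95% intervals from -0.37 to 1.495 and from -0.32 to 1.52, and Col-0 replicate 2, with 1.61 CPM, lay within the range of both lines. The order of the 5 lines by mean PGN level thus separated pgn from its neighbour, and the other 4 lines overlapped with theirs. For AT5G10690 the same held for at5g10690, and for each of the other 7 genes all neighbours in the order of the lines overlapped.

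**Figure D4:**
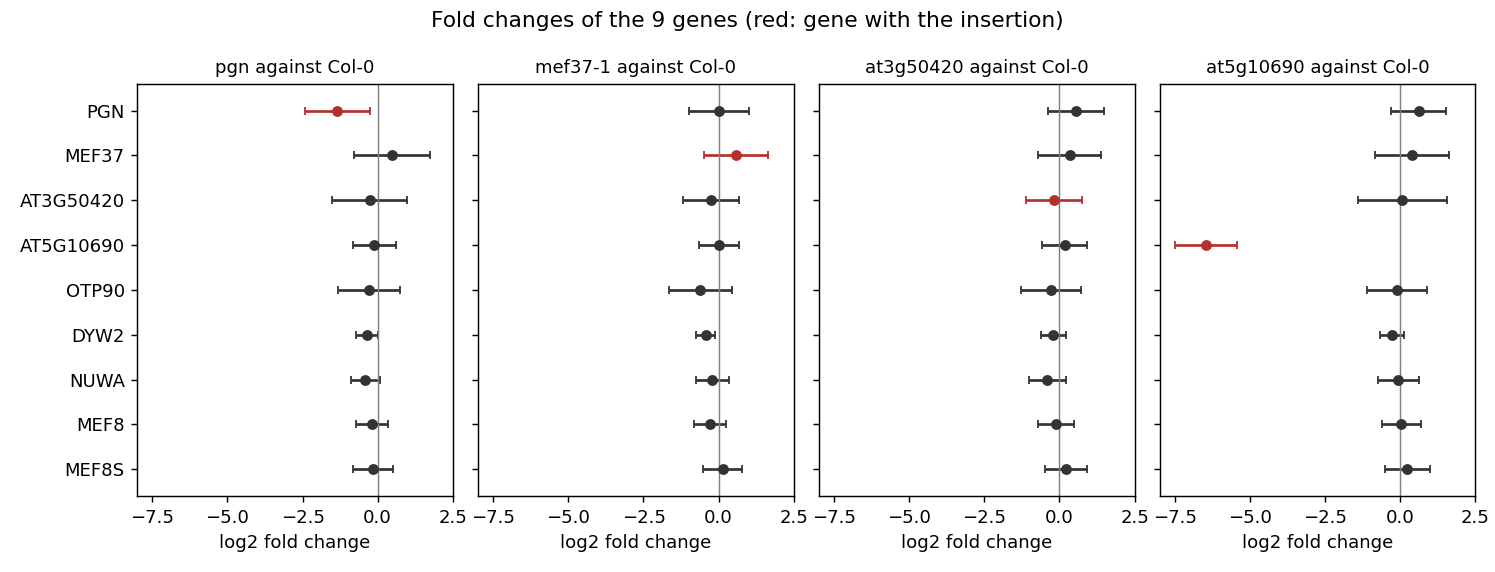
Log2 fold change against Col-0 (horizontal axes) of the 9 genes (vertical axis) in the 4 insertion lines, with 95% intervals from edgeR's quasi-likelihood fit, and in red the gene with the insertion. The intervals are not adjusted for the number of genes. They leave out 0 for AT5G10690 in at5g10690 (-6.47), PGN in pgn (-1.34) and DYW2 in mef37-1 (-0.43). Those of MEF37 in mef37-1 and AT3G50420 in at3g50420 include 0. Only AT5G10690 in at5g10690 was called.

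Fitted over all 15 libraries, 1 of the 9 genes differed between the 5 lines, AT5G10690 (adjusted p = 0.000194, edgeR's quasi-likelihood F test), against 0.0218% of 18358 genes. PGN had the next smallest value, an unadjusted p of 0.00202 and an adjusted p of 1 in the same edgeR fit. For DYW2 the unadjusted p was 0.0952, and for the other 6 genes it was 0.532 or more.

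The libraries were also compared by replicate number, since those with the same number deviated together. Between the replicate numbers, with the line as a term, 39.8% of 18358 genes were called and 0 of the 9 (edgeR's quasi-likelihood F test). MEF8 came nearest (unadjusted p = 0.0435, adjusted p = 0.0900, same edgeR test), and was 0.33 higher on the log2 scale in replicate 2 and 0.40 higher in replicate 3 than in replicate 1. Its replicate 1 was the lowest of the line in Col-0, pgn, at3g50420 and at5g10690 and not in mef37-1, and without mef37-1 replicate 1 it was called (adjusted p = 0.0367, edgeR). MEF37 was 0.65 higher in replicate 3 than in replicate 1, with the highest value of the line in replicate 3 in all lines but mef37-1, and without mef37-1 replicate 3 it was called (adjusted p = 0.0332, edgeR), as was AT5G10690 (0.0111). The 9 genes had at most 319 reads in a library. PYK10, a gene of roots, moved with the number too, from 57 to 1796 reads in replicate 1 to 11 to 231 in replicate 2 and 0 to 5 in replicate 3. The unscaled reads on the 4 leaf markers summed to 335515 to 460341 in replicate 1, 400280 to 538803 in replicate 2 and 172797 to 426074 in replicate 3. The part of these markers in the differences was not tested.

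**Figure D5:**
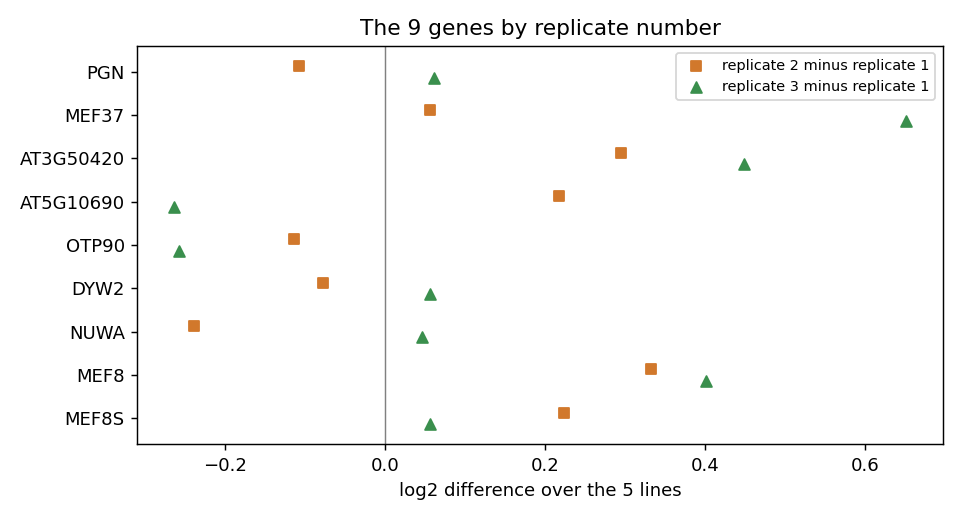
Log2 difference of replicates 2 and 3 from replicate 1 (horizontal axis) for the 9 genes (vertical axis), fitted over the 5 lines. MEF37 in replicate 3 lies farthest out at 0.65, MEF8 lies at 0.33 and 0.40, and 0 of the 9 genes were called.

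The other genes of the pathway did not pass the test in any line either. Of 16 other E+ factors 13 were tested in pgn and mef37-1 and 14 in at3g50420 and at5g10690. All 26 other characterised E and DYW factors were tested, as were DYW1 and DYW4. In every comparison 0 of these genes were called, and 0 reached an unadjusted p under 0.05 (edgeR's quasi-likelihood test), and DESeq2 called 0 as well. Over all genes tested, 0% to 0.0114% were called and 0.312% to 2.91% had such an unadjusted p in that edgeR test. At these shares a list this short would hold few or none. The median log2 fold change of the E+ factors was -0.02 in pgn, -0.01 in mef37-1, -0.22 in at3g50420 and 0.09 in at5g10690. That of the E and DYW factors was -0.11, -0.15, -0.05 and 0.07 in the same order. Between the replicate numbers 3 of 15 E+ factors (AEF1, CWM2 and CRR21), 5 of 26 E and DYW factors (OTP86, CRR4, OTP85, MEF14 and ELI1) and DYW1 were called, beside the 39.8% of all genes. CWM2, a gene of the E+ list, was 0.90 higher on the log2 scale in replicate 2 and 1.05 higher in replicate 3 than in replicate 1 (adjusted p = 0.0247, edgeR). DYW1 was 0.31 higher in replicate 2 and 0.31 lower in replicate 3, a log2 difference of -0.31 (adjusted p = 0.00524, edgeR).

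Genes most like DYW2 and AT5G10690, the only 2 of the 9 with a median of at least 100 reads, were looked for among 18358 genes by Pearson's r of log2 CPM over the 15 libraries. For DYW2 these were FIB1 (AT5G52470), a fibrillarin of the nucleolus, with r = 0.905, and TRN1 (AT2G16950), a transportin, with r = 0.902. After the means of the replicate numbers were subtracted the values were 0.905 and 0.907. For AT5G10690 they were AT3G05000 (r = 0.878) and AT1G09794 (r = 0.828). Without the 3 at5g10690 libraries these fell to 0.22 and -0.15 over 12 libraries, so that the likeness rested on that line. These are the highest of many values, over libraries that share depth and replicate number, and are given as a description.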

How the data were processed

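Rosette RNA was depleted of ribosomal RNA and sequenced as stranded single-end reads of 75 nt. The authors aligned them with STAR without spliced alignments and deposited raw read counts for each gene (featureCounts 1.5.0-p2, exons, stranded, multi-mapping reads kept). Reads across exon junctions were thus not aligned as such. From the deposited counts each line was compared with Col-0 in R 4.3.3 with edgeR 4.0.16 (TMM, filterByExpr, quasi-likelihood test), and p-values were adjusted by Benjamini-Hochberg over all genes tested, with calls at 0.05. All 15 libraries were fitted together for the lines and the replicate numbers. CPM are scaled by TMM over the 15 libraries, and the log2 CPM for likeness had a prior count of 2. Intervals on summed reads are exact binomial and cover counting error only. The floor was set at 3 reads, or 0.0884 to 0.162 CPM.

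The 9 genes, the lists of other PPR genes and the tissue markers were chosen with earlier results of these data known. The text names all 9, list genes that were called, the 2 genes most like each with a median of at least 100 reads, and, chosen after their values were seen, further list and marker genes. Coordinates and sequences come from RefSeq TAIR10.1, where 32532 of 32548 nuclear genes had the files' start, end and strand. Primers are the study's. The end of 1 coding sequence is not reported here.

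The labels number the libraries 1 to 3 in each line and do not call them pairs, and the series text speaks of 1 biological replicate. The p-values therefore measure the spread between these libraries, which may be technical. Same-numbered libraries of a line and Col-0 deviated together from their group means, with correlations of 0.272 to 0.753 over the 12 pairs, so the replicate block was fitted as well. No 2 libraries of a line were the same, their counts differing by 22.8 to 122.1 times the sampling variance. Alternatives were RLE normalization, DESeq2 1.42.0, the likelihood ratio test, no filter, a fit on nuclear genes, a fit on all libraries, the block, the other insertion lines as control, calls at 0.01 and omission of each library. Scripts were tested on simulated data. Of 100 genes changed 2-fold, edgeR's quasi-likelihood test called 2, 9, 11 and 4 in pgn, mef37-1, at3g50420 and at5g10690. Of 100 changed 8-fold it called 96, 93, 100 and 94. The changed genes were drawn from those with higher counts. For genes with few reads, such as MEF37, AT3G50420 and OTP90 with a median of 11, the recovery of either change was not measured. A missing call among the 9 genes thus does not exclude a 2-fold change.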

Additional observations from a re-analysis of the deposited data

How the results depend on the processing

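AT5G10690 in at5g10690 stayed below Col-0 in all 15 alternatives and was called in 11. The 4 that lost the call each left out a library, and over the 6 omissions its log2 fold change ran from -6.71 to -6.17 and the number of the 9 genes called from 0 to 1. At an adjusted p under 0.01 that number was 0. PGN in pgn stayed lower in all 15 (-1.75 to -0.87) and was called in 0. MEF37 in mef37-1 stayed higher in all 15 (0.18 to 1.13). AT3G50420 in at3g50420 ran from -0.41 to 0.14 as libraries were left out. Leaving out libraries moved the number of the 9 genes that differed between the replicate numbers from 0 to between 0 and 2. The replicate block changed no call among the 9 genes. It gave log2 fold changes of -1.26 for PGN in pgn and -6.39 for AT5G10690 in at5g10690, and it turned AT3G50420 in at5g10690 to -0.0022.

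With the other insertion lines as control the log2 fold change turned to 0.37 for AT5G10690 and 0.033 for OTP90 in pgn, and to -0.15 for PGN and 0.078 for NUWA in mef37-1. In at3g50420 it turned to -0.15 for MEF37, 0.040 for OTP90, 0.15 for DYW2 and 0.034 for MEF8, and in at5g10690 to -0.085 for MEF37, 0.27 for OTP90, 0.041 for DYW2 and 0.26 for NUWA. None of these values was called, and this control includes lines in which a compared gene carries an insertion. Leaving out libraries gave these ranges across 0. In pgn they were -0.66 to 0.091 for AT3G50420, -0.33 to 0.21 for AT5G10690, -0.022 to 1.02 for MEF37 and -0.36 to 0.00093 for MEF8S. In mef37-1 they were -0.49 to 0.061 for AT3G50420, -0.21 to 0.34 for AT5G10690, -0.087 to 0.27 for MEF8S and -0.20 to 0.50 for PGN. In at3g50420 they were -0.058 to 0.49 for AT5G10690, -0.27 to 0.063 for MEF8 and -0.0068 to 0.36 for MEF8S. In at5g10690 they were -0.67 to 0.46 for AT3G50420, -0.24 to 0.18 for MEF8, -0.39 to 0.14 for NUWA and -0.38 to 0.091 for OTP90. MEF37 did not pass the filter there without Col-0 replicate 3 or at5g10690 replicate 3.

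Over all genes, edgeR's quasi-likelihood test called 0, 1, 0 and 2 in pgn, mef37-1, at3g50420 and at5g10690, DESeq2 1, 5, 4 and 4, the likelihood ratio test 1, 5, 5 and 4, and the block 1, 2, 1 and 2. Between the 5 lines it called 4, DESeq2 9 and the block 7. For pgn and mef37-1 the paper, with its own analysis, reports more differentially expressed genes than any of these fits called. The cause of these differences was not tested. Depth limits the lowest genes, since MEF37, AT3G50420 and OTP90 had a median of 11 reads.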
